A study of Mus musculus with 2 samples.

Results

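The regions described here were long peaks of H2BK120ub in the library labelled as UBR7-KO liver cells that met no peak over the same length limit in the library labelled as wild type. They were chosen by peak length alone: a peak of the UBR7-KO list was taken when it was over 10000 bp long, lay on an autosome other than chromosome 19, and overlapped no WT peak over 10000 bp. This gave 1198 domains, out of 4182 UBR7-KO peaks over 10000 bp on the same 21 autosomes and 127444 UBR7-KO peaks in all. A shorter WT peak lay on 939 of the domains, and 259 had no WT peak at all. Because length and overlap made the choice, both are given below as a description and were not tested.

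H2BK120ub is histone H2B carrying a single ubiquitin on lysine 120. The mark is laid down mainly by the RNF20/RNF40 ligase together with the conjugating enzymes UBE2A and UBE2B, it accompanies RNA polymerase II through the bodies of transcribed genes, and deubiquitinases such as USP22 remove it. Since it follows elongation, it tends to form long stretches over active genes rather than sharp peaks, which makes peak length a property of interest for this mark. UBR7, a ligase with a PHD finger, is a further enzyme that ubiquitinates this residue and was the subject of the study.

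H2BK120ub was profiled by chromatin immunoprecipitation and sequencing in conditionally immortalized mouse liver primary cells grown in serum. The WT group was wild type, and the UBR7-KO group was Alb-Cre;UBR7fl/fl, in which Cre recombinase under the albumin promoter deletes the floxed UBR7 alleles in hepatocytes. Each genotype had 1 library and its own peak list, so that every difference below is between 2 libraries, with no replicate error and no p-value. Sequencing depth was unknown, and the cells, although labelled as mouse, had been aligned to the human genome hg19. Whether the reads came from mouse or human material cannot be settled from the peak lists, so that the genotypes are given as labelled and a position need not be where the mouse genome carries the mark. Positions are those of hg19, counted from 1, and genes and liver markers at these positions were not analysed here. The WT list was the smaller, with 101866 peaks, but held more broad ones: 7721 peaks over 10000 bp, against 4779 in the UBR7-KO list.

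The domains made up 28.6% of the UBR7-KO broad peaks (1198 of 4182, 95% Wilson interval 27.3 to 30.04). Those without any WT peak made up 6.19% (259 of 4182, interval 5.50 to 6.96). Among all UBR7-KO peaks on the same autosomes, of whatever length, 65.2% overlapped no WT peak (79014 of 121127). Complete absence from the WT list was thus rarer for broad peaks than for peaks in general. Peaks in general had a median length of only 1359 bp, and a longer region can meet a WT peak more easily. The part of length in this difference was not tested. The same rule applied in the other direction gave 4195 WT broad peaks without a broad UBR7-KO counterpart, or 60.6% of 6922. The count in that direction was 3.50 times the count of domains. The WT list also held more broad peaks on these autosomes, 6922 against 4182. With a WT limit of 13683 bp, which gives both lists 4779 broad peaks, 39.7% of the UBR7-KO broad peaks had no broad WT counterpart. The share in the other direction was not computed at that limit. The intervals cover counting error only, and neighbouring regions are not independent.

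The domains were short for broad peaks. Their median length was 12009.5 bp (quartiles 10816 and 14343 bp, range 10003 to 33650 bp), while the 2984 UBR7-KO broad peaks that overlapped a broad WT peak had a median of 15347.5 bp and reached 125009 bp. Only 50 domains (4.17%) were over 20000 bp, against 830 (27.8%) of the peaks broad in both libraries. The share of UBR7-KO broad peaks without a broad WT counterpart fell with length, from 47.1% (596 of 1265) at up to 12000 bp to 33.1% (365 of 1103) at up to 15000 bp, 20.02% (187 of 934) at up to 20000 bp and 5.68% (50 of 880) above that. A complete absence of WT peaks followed the same order, from 12.5% to 6.44%, 2.68% and 0.568%. A longer region can also meet a WT peak more easily, and the part of this in the order was not tested.

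Taken as a whole, the domains covered 15.69 Mb, which was 22.2% of the 70.81 Mb in UBR7-KO broad peaks. WT peaks covered 5.81 Mb of them, or 37.1% of their length. In the peaks broad in both libraries, 90.8% of the length was covered in WT, and the 21 autosomes as a whole were covered at 11.7% by WT peaks and 10.5% by UBR7-KO peaks. Pooled over their length, the domains were thus covered more by WT peaks than the 21 autosomes as a whole. Their nearer surroundings differed less: the flanks of 50000 bp on each side were covered at a mean of 31.5%, the domains at a mean of 36.9%. Nor did it hold for each domain, as 340 of 1198 (28.4%) were covered at under 10%.

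The longest domain with a shorter WT peak was chr12:122041854-122075503, with 33650 bp. WT peaks of 9296 and 2915 bp lay toward its end of higher coordinates and covered 31.3% of it, while the remainder held none. The second, chr11:63698118-63730502 (32385 bp), carried 4 WT peaks of 3166, 4480, 5770 and 5103 bp that covered 52.6%. In chr10:125401708-125432022 (30315 bp), the WT peaks of 4905 and 9355 bp sat on the opposite ends with 17041 bp between them, so that the middle of the domain was without a WT peak. The fourth, chr16:30917288-30947517 (30230 bp), held 4 WT peaks that covered 58.9%, the longest of 8681 bp.

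**Figure D1:**
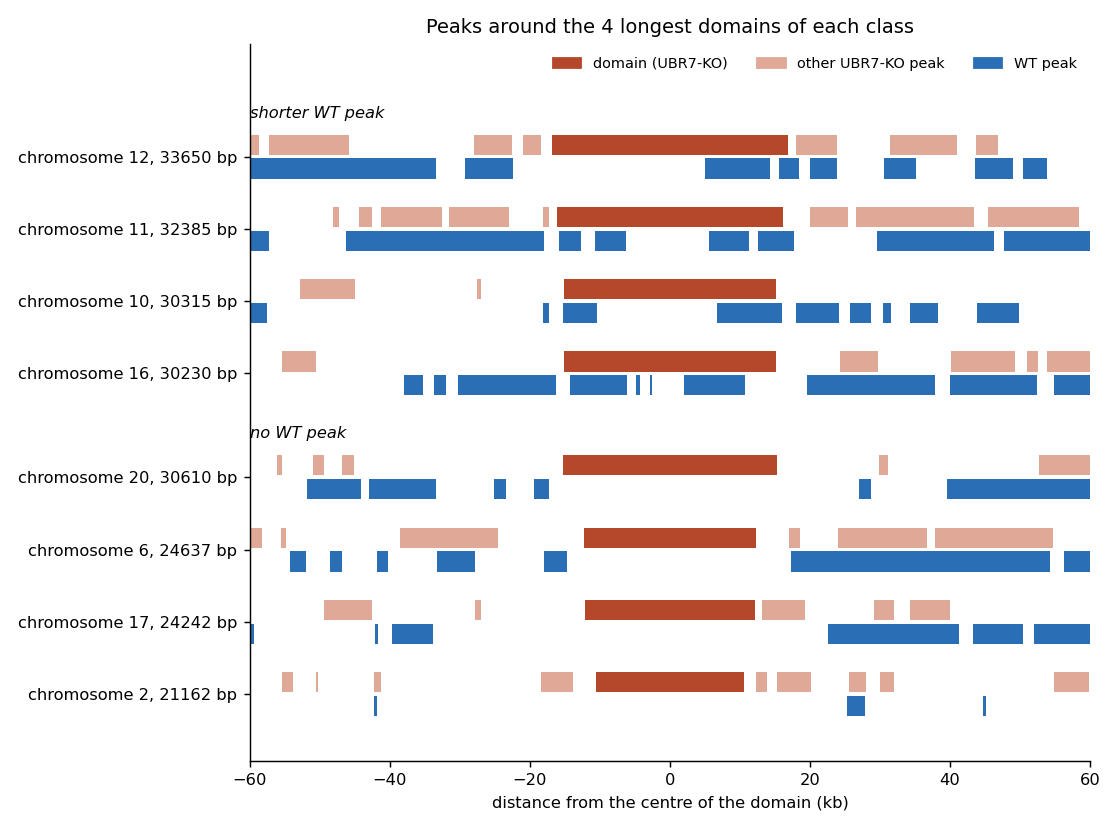
Peaks within 60 kb of the centre of the 4 longest domains with a shorter WT peak and the 4 longest with no WT peak; each bar is a peak, the horizontal axis gives the distance from the centre in kb, and row labels give the chromosome and the length of the domain. In the upper rows WT peaks cover from 31.3% to 58.9% of the domain, in the lower rows none lies on it although WT peaks lie within the window on both sides.

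Among the remaining 6 of the 10 longest, the order of WT coverage differed widely. WT peaks covered 65.4% of chr11:60767116-60797025 (29910 bp), where a pair of WT peaks of 9760 and 9804 bp was split by a gap of 1309 bp. They covered 54.2% of chr20:37283841-37312791 (28951 bp), 46.3% of chr3:133643772-133670700 (26929 bp) and 40.4% of chr16:66455963-66483493 (27531 bp). By contrast, chr1:37878902-37907213 (28312 bp) had 1 WT peak of 3023 bp on it, covering 10.7%, and chr7:157103570-157130241 (26672 bp) had 1 of 964 bp, covering 3.61%. Across the 1198 domains the Spearman's rho between length in UBR7-KO and coverage in WT was 0.03. It is given as a description, since all points come from the same pair of libraries. The rule also bears on it: no WT peak on a domain may be over 10000 bp, which limits the coverage of long domains.

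The longest domain with no WT peak was chr20:30094368-30124977, with 30610 bp. The nearest WT peak ended 2020 bp away, and the whole stretch free of WT peaks around it measured 44291 bp. Next came chr6:33505485-33530121 (24637 bp) and chr17:74817521-74841762 (24242 bp), in WT gaps of 31924 and 56280 bp. In the flanks of these 3 domains, taken as 50000 bp on each side, WT peaks covered 48.5%, 56.7% and 43.4%, so that the WT list was silent over the domain but not around it. The fourth, chr2:42683588-42704749 (21162 bp), differed: WT peaks covered 3.43% of its flanks and UBR7-KO peaks 23.2%.

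Of the other 6 longest without a WT peak, chr20:17880914-17901500 (20587 bp) and chr17:4309866-4329495 (19630 bp) also lay in flanks covered by WT peaks, at 31.7% and 52.8%. For chr3:196571551-196590334 (18784 bp), chr7:103090726-103109364 (18639 bp) and chr17:6139649-6158106 (18458 bp) the flanks were covered at 5.05%, 4.23% and 8.64%. The last, chr20:1948319-1966615 (18297 bp), shared its WT gap of 71229 bp with a further domain, chr20:1970507-1983255. Such sharing was rare, with 3 WT gaps out of 256 holding 2 domains. The others were a gap of 76992 bp on chromosome 10, with domains of 15984 and 11183 bp, and a gap of 111391 bp on chromosome 4, with domains of 10235 and 10989 bp.

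The share of a domain covered by WT peaks had a median of 35.3% (quartiles 5.20 and 62.7%). At least 50% was covered in 426 domains (35.6%), at least 75% in 160 (13.4%) and at least 90% in 10 (0.835%), while 340 (28.4%) were covered at under 10%. The 939 domains with a shorter WT peak had a median of 46.8% and spread over the whole range, with between 78 and 133 domains in each step of 10 percentage points up to 90% and 10 domains above. The highest coverage was 96.7%, at chr5:565869-576099, where a WT peak of 9898 bp lay inside a domain of 10231 bp. It was followed by chr8:61817005-61827603 at 93.0%, under a WT peak of 9857 bp, and chr3:129032611-129048870 at 92.8%, under a pair of WT peaks 1178 bp apart. At these the libraries differed by the length limit rather than by position.

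At the other extreme, chr15:64998023-65015425, chr20:47123868-47137649 and chr12:31796278-31806719 were touched by a WT peak on 0.155%, 0.196% and 0.469% of their length. Their WT peaks of 3293, 4069 and 1091 bp lay almost wholly outside the domain. These count among the domains with a WT peak only because 1 shared base pair was enough.

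**Figure D2:**
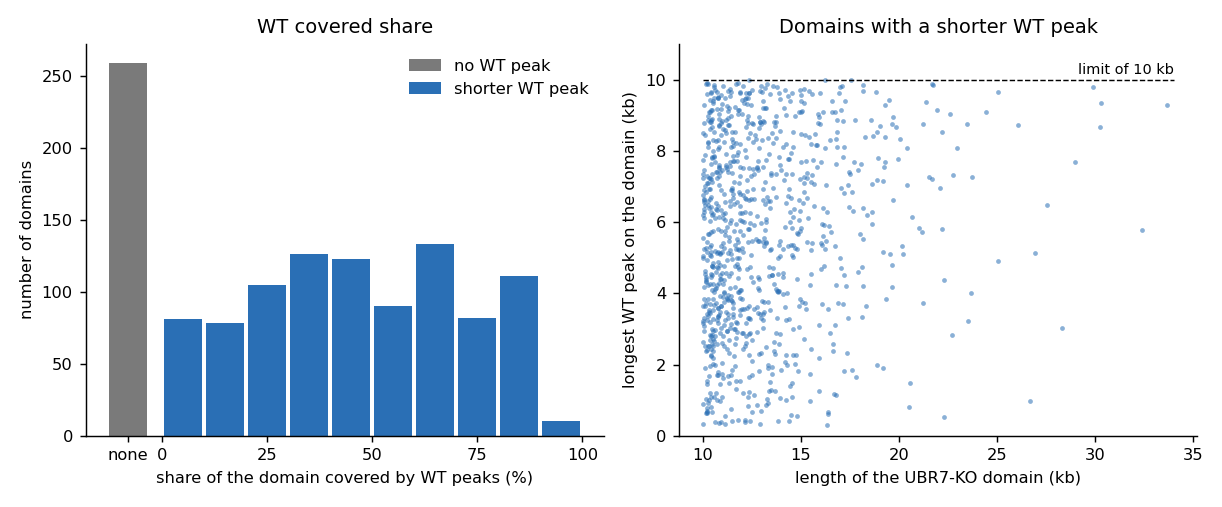
Left, number of domains by the share of their length covered by WT peaks in steps of 10 percentage points, with the 259 domains without a WT peak in grey; right, the longest WT peak on each of the 939 other domains against the length of the domain, both in kb, with the limit of 10 kb dashed. Coverage spreads over the whole range, and the longest WT peaks fill the space under the limit.

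The form of the WT signal on the 939 domains was then examined. A single WT peak lay on 482 of them (51.3%), 2 on 368 (39.2%), 3 on 81 (8.63%) and 4 or more on 8 (0.852%). The longest WT peak on a domain had a median of 5757 bp (quartiles 3556 and 7897 bp). It was over 8000 bp in 231 domains (24.6%) and over 9000 bp in 115 (12.2%), whereas it was under 1000 bp in 41 (4.37%). All WT peaks lay wholly inside the domain in 417 cases (44.4%), and reached past an edge in the others.

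Several WT peaks lay on some domains, and the length of the domain bounds the gaps between them. The widest gap between such WT peaks had a median of 1793 bp in 457 domains. It was at most 2000 bp in 266 (58.2%) and at most 5000 bp in 388 (84.9%). In the 992 peaks broad in both with several WT peaks, the median was 1553 bp. The smallest gap between any WT peaks of the list was 1169 bp. Measured from the start of the first to the end of the last, the WT peaks spanned over 10000 bp in 327 of the 939 domains (34.8%). With gaps of at most 5000 bp throughout, 264 (28.1%) did so. The WT list thus held a row of separate peaks at these domains. Their total reach was over the limit, counted with any parts that lay outside the domain. When WT peaks within 5000 bp were merged, including those next to a domain, and the UBR7-KO peaks were left as deposited, 693 of the 4182 UBR7-KO broad peaks were without a broad WT region, in place of 1198. When both lists were merged in this way, the count was 4505 of 9283, so that the number of domains depended on how gaps were treated.

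Along the domains, coverage by WT peaks was highest in the interior. In the class with a shorter WT peak, the mean share covered rose from 37.4% in the first of 20 equal bins to 53.0% past the middle and was 37.9% in the last. In the peaks broad in both libraries it ran from 83.4% at the first edge to 93.1% near the middle. The midpoint of the longest WT peak lay a median of 25.7% of the domain length from the centre (quartiles 14.0 and 38.7%), where 50% would be the edge. Midpoints spread evenly between centre and edge would lie about as far out, so these values show no central placement of the longest WT peak. In the first 5000 bp outside, WT peaks covered 26.9% and 28.7% beside these domains and 71.5% and 71.8% beside the peaks broad in both. The rule bears on these bins as well, as it removes every region that a broad WT peak touches from the domains.

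**Figure D3:**
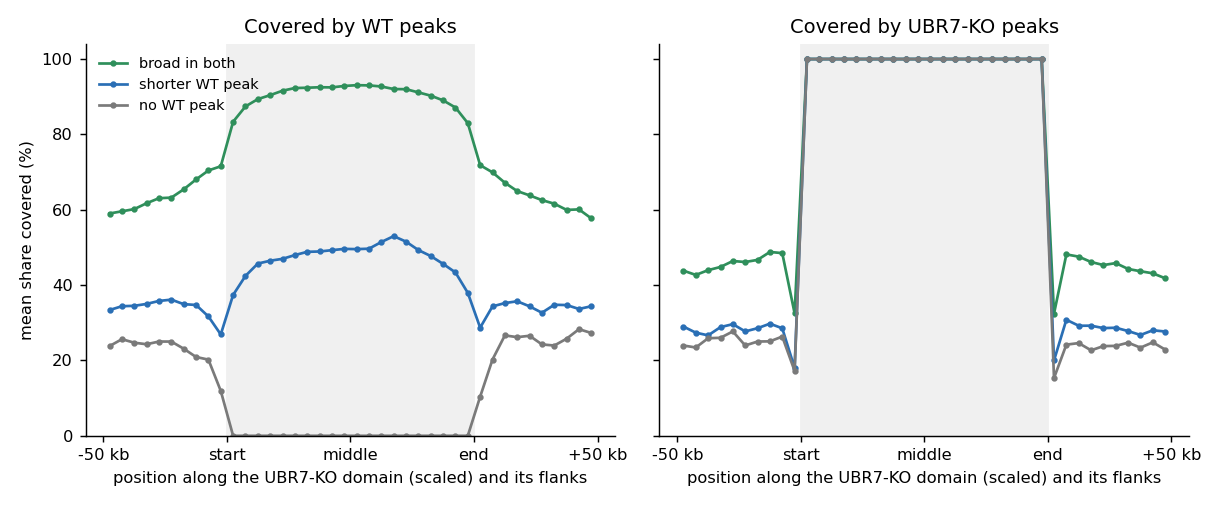
Mean share covered by WT peaks (left) and by UBR7-KO peaks (right) along UBR7-KO broad peaks, divided into 20 equal bins between start and end (grey band), and in bins of 5 kb over 50 kb on each side; lines are the means over the 2984 peaks broad in both, the 939 with a shorter WT peak and the 259 without one. WT coverage reaches 53.0% inside the domains with a shorter WT peak and 93.1% inside those broad in both, and UBR7-KO coverage inside is 100% by construction.

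Coverage of the surroundings is given as a description, since the rule bears on it: a peak broad in both must overlap a WT peak over 10000 bp, which can run on into its flanks, while no such peak may touch a domain. In the 50000 bp on each side, WT peaks covered a median of 66.3% around peaks broad in both libraries, 30.8% around domains with a shorter WT peak and 19.8% around those with none. For UBR7-KO peaks the medians were 42.4%, 25.6% and 22.1%. Among the domains, the flanks were more covered in WT than in UBR7-KO for 61.4% of those with a shorter WT peak (577 of 939) and 42.1% of those without (109 of 259). For the peaks broad in both, this share was 90.2% (2691 of 2984). The 21 autosomes as a whole were covered at 11.7% by WT peaks and 10.5% by UBR7-KO peaks.

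Distances from the domains to WT peaks are given as a description, with no share for UBR7-KO peaks in general beside them. The peaks broad in both overlap a broad WT peak by the rule and give no comparison. A WT peak over 10000 bp lay within 50000 bp of 646 domains (53.9%), at a median distance over all domains of 41249.5 bp. For the domains without a WT peak, 105 of 259 (40.5%) had one that near. The nearest WT peak of any length was a median of 5193 bp from them (range 46 to 45479 bp), and the WT gap in which they lay measured a median of 39767 bp (quartiles 26778 and 57400 bp). Farthest from any WT peak was chr16:83612378-83622638, at 45479 bp, in a WT gap of 155380 bp. It was followed by chr7:105154954-105168947 at 44582 bp and chr10:24542711-24555265 at 32266 bp. WT peaks covered 1.18%, 0.361% and 5.72% of the flanks of these 3 domains, and UBR7-KO peaks 2.72%, 27.0% and 15.2%.

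The domains were low in their own list by fold enrichment. By pileup, given further on, they were close to shorter peaks but below the peaks broad in both. Fold enrichment is the pileup of fragments over a peak relative to the local background of that library, and no peak of either list was under 2. The domains had a median fold enrichment of 2.098 (quartiles 2.04 and 2.17, highest 2.76), and 608 of 1198 (50.8%) were under 2.1, against 38.9% of the peaks broad in both and 35.6% of all UBR7-KO peaks on these autosomes. Ranked from the highest among 127444 peaks, they had a median rank of 82494.5, at 64.7% of the list. The peaks broad in both stood at 56.0% and UBR7-KO peaks of up to 10000 bp at 49.4%. Domains without a WT peak ranked lower, at 72.5%, than domains with a shorter one, at 62.7%. At up to 15000 bp, the medians were 64.2% for the domains and 58.2% for the peaks broad in both, so that the order was kept at like lengths.

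**Figure D4:**
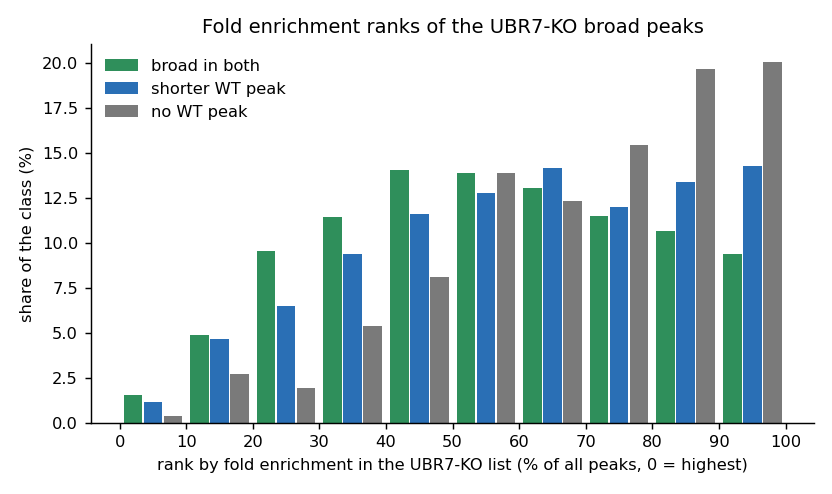
Share of each class of UBR7-KO broad peaks by rank of fold enrichment among all 127444 UBR7-KO peaks, in steps of 10% of the list from the highest at 0 to the lowest at 100. The class without a WT peak is most frequent in the last step, with 20.1% of its members, against 14.3% of those with a shorter WT peak and 9.38% of those broad in both.

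Coverage in WT went with fold enrichment in UBR7-KO. Among the 300 domains with the lowest fold enrichment, 88 (29.3%) had no WT peak and the median coverage was 25.5%. Among the 300 with the highest, 40 (13.3%) had none and the median coverage was 44.8%. The median length was 11773.5 bp and 11798.5 bp in these sets, so that they were alike in length. The Spearman's rho across the 1198 domains was 0.16 between fold enrichment and WT coverage, and 0.37 between WT coverage of the flanks and of the domain. Both are descriptions over regions of the same libraries.

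The pileup of the domains had a median of 4.46 fragments (range 3.42 to 7.40) on the scale of the peak caller, close to the 4.41 of UBR7-KO peaks of up to 10000 bp. It was below the 4.655 of the peaks broad in both. At up to 15000 bp the medians were 4.45 for the domains and 4.62 for the peaks broad in both. The background recovered from pileup and fold enrichment had a median of 1.58 in the domains and 1.45 in those shorter peaks. The WT peaks on the domains, 1492 in number, had a median pileup of 7.15 in their own library. Pileups depend on depth and were not compared between libraries. By rank the WT peaks stood slightly above other WT peaks of up to 10000 bp, at a median of 43.7% of the WT list against 51.7%, although they were also longer, with a median of 4468 bp against 1425 bp.

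Among the domains with a shorter WT peak, the 5 with the highest fold enrichment measured 10199 to 14185 bp. Of these, chr1:112530206-112540638 led with 2.76 (rank 3805), and a WT peak of 4460 bp covered 42.7% of it. After it came chr17:8599064-8613248 with 2.71 (rank 4790), chr12:5151061-5161700 with 2.67 (rank 5669), chr14:36981087-36991817 with 2.66 (rank 6017) and chr9:138795944-138806142 with 2.66 (rank 6104). WT peaks covered 25.5%, 27.9%, 83.7% and 67.3% of these. The WT peak of 2964 bp on the domain of chromosome 12 ranked 2475 in the WT list, so that this place stood high in both libraries and differed in width.

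Among the domains without a WT peak, chr16:22936941-22948070 had the highest fold enrichment with 2.502 (rank 12328). It was the only one of the 259 in the first 10% of the list. It measured 11130 bp, and the next 4 measured 12749 to 14952 bp, above the median of their class (11417 bp). The next were chr1:34440127-34454092 with 2.43 (rank 17608), chr16:24212856-24225663 with 2.42 (rank 17920), chr20:1970507-1983255 with 2.41 (rank 18830) and chr11:134743741-134758692 with 2.39 (rank 20800). The nearest WT peak was 8531, 877, 16291, 23412 and 5193 bp from these 5 domains. WT peaks covered between 7.10% and 20.3% of their flanks, and UBR7-KO peaks between 22.1% and 29.7%, so that in these places the UBR7-KO list was the denser over a wider stretch as well.

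By chromosome, the share of UBR7-KO broad peaks that were not broad in WT ranged from 11.4% to 52.1%. It was highest on chromosome 10 (86 of 165, interval 44.5 to 59.6), on chromosome 15 at 47.1% (49 domains, interval 37.8 to 56.6) and on chromosome 6 at 45.3% (39 of 86, interval 35.3 to 55.8). It was lowest on chromosome 21 (9 of 79, interval 6.11 to 20.3), on chromosome 22 at 17.0% (46 of 271, interval 13.0 to 21.9) and on chromosome 9 at 17.0% (39 of 229, interval 12.7 to 22.4). The interval lay above the overall share on 5 chromosomes (5, 6, 10, 12 and 15) and below it on 6 (4, 9, 11, 16, 21 and 22). In number per length, chromosome 17 led with 1.49 domains per Mb, and chromosome 4 had the fewest with 0.115. Chromosomes are not replicates, and no test was made across them.

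**Figure D5:**
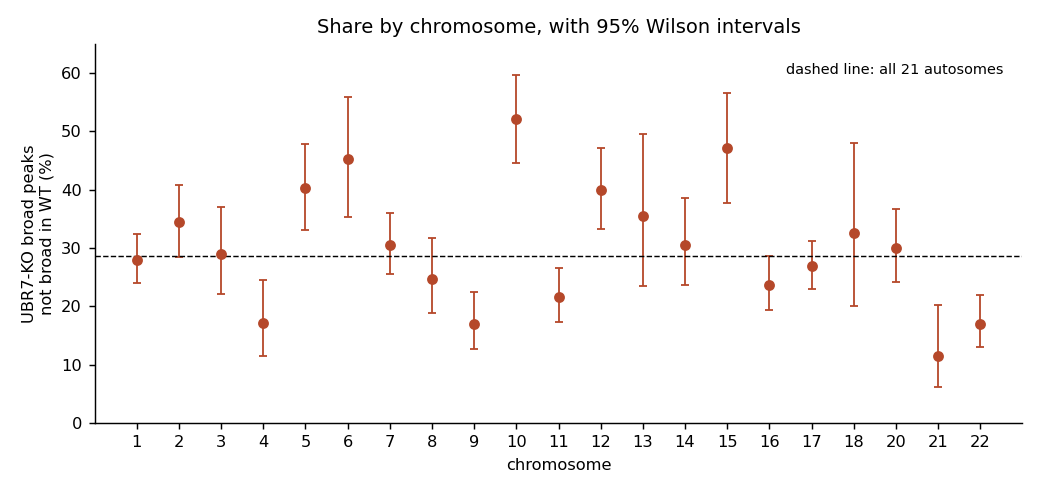
Share of UBR7-KO broad peaks that overlapped no broad WT peak on each of the 21 autosomes used, as points with 95% Wilson intervals, which cover counting error only; the dashed line is the share over all of them, 28.6%. Chromosome 10 is highest at 52.1% and chromosome 21 lowest at 11.4%.

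The domains were rarer near chromosome ends than the UBR7-KO peaks broad in both libraries. Within 2 Mb of an end lay 75 of the 1198 domains (6.26%, interval 5.02 to 7.78) and 635 of the 2984 peaks broad in both (21.3%, interval 19.8 to 22.8). At up to 15000 bp the shares were 6.24% (60 of 961) and 17.0% (239 of 1407). The rule bears on this, since peaks broad in both must overlap a WT peak over 10000 bp and domains must not. No share for WT broad peaks or for UBR7-KO peaks in general is given beside these, and the part of the rule was not tested. Another domain lay within 100000 bp for 408 domains (34.1%). Chained at that distance, the domains formed 965 groups, of which 790 held 1 domain and 42 held 3 or more. UBR7-KO broad peaks are themselves uneven, from 0.417 per Mb on chromosome 13 to 5.54 on chromosome 17. No such share was computed for them, so whether the domains lie closer together than broad peaks in general was not tested.

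The largest group held 6 domains, at chr7:140121879-140344767. Its members measured 10039 to 16050 bp, and 3 of them, next to each other, had no WT peak. Over the 222.9 kb of the group, UBR7-KO peaks covered 48.1% and WT peaks 21.9%. A pair of groups with 5 domains lay on chromosome 11. In chr11:113752010-114015624 all 5 had a shorter WT peak, covering 14.9% to 68.7% of them, and the stretch as a whole was covered about as much in WT (33.7%) as in UBR7-KO (36.3%). In chr11:134315001-134590713, where 1 of 5 had no WT peak, WT peaks covered 40.4% and UBR7-KO peaks 50.8%.

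The regions on either side of the limits were as follows. The shortest domains were chr5:2501024-2511026 (10003 bp), chr1:38072450-38082455 (10006 bp) and chr1:14824651-14834657 (10007 bp), with 33.2%, 61.6% and 0% of their length under WT peaks. Just short of the length limit were chr2:106172211-106182210 (10000 bp), chr18:45614846-45624838 (9993 bp) and chr22:41429858-41439850 (9993 bp), with 47.8%, 0% and 0%. In WT, the longest peaks on a domain measured 9988 bp on chr12:120829629-120847185, 9980 bp on chr3:129032611-129048870 and 9978 bp on chr7:151104217-151116559, while the shortest WT peaks that kept a UBR7-KO peak out of the domains measured 10009, 10010 and 10021 bp. WT peaks covered 60.2%, 92.8% and 66.3% of the first 3 regions, and 96.0%, 87.7% and 82.2% of the latter. Among UBR7-KO peaks of 8000 to 10000 bp, 18.9% had no WT peak (415 of 2201), against 12.5% at over 10000 to 12000 bp (158 of 1265).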

How the data were processed

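The authors aligned the reads to the human genome hg19 and used MACS separately for the 2 libraries; the value of its q-value cut-off is not given in the sources used here, nor are the mode of the caller or the read number. A rabbit IgG is named beside the antibody, but not whether it was the control for peak calling. The study's methods name BWA as aligner, whereas the submitters' processing notes name Bowtie 1.1.2. The deposited lists give, per peak, its position and length, a pileup, which is a signal on the scale of the caller and depends on depth, and a fold enrichment, a ratio to the local background of the same library. They were used as deposited, after removal of 6 blank rows; 0 peaks lay outside hg19.

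Groups came from the genotype labels. Overlap meant at least 1 bp. Fold enrichment was ranked within each list only. The recovered background is the pileup plus 1 divided by the fold enrichment, minus 1. Shares have 95% Wilson intervals. With 1 library per genotype no test was made. Interval code was tested on simulated peaks and against bedtools 2.31.1. Python 3.11.15, numpy 2.4.6, pandas 2.3.3 and scipy 1.17.1 were used, with chromosome lengths from GenomeInfoDb 1.38.1. Regions named in the text were, in each class, the 10 longest and the 5 with the highest fold enrichment, and the 3 at each extreme of WT coverage, at the limits and in distance from WT peaks; the groups of neighbouring domains and the shared WT gaps were chosen after their values were seen. The rule for the domains and all lists were chosen with earlier results of these data known. The planned naming of genes and markers was not done, because positions are in hg19 and the reference tables used here describe mouse.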

Additional observations from a re-analysis of the deposited data

How the results depend on the processing

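The counts follow the limits on length, height and gaps, and how far 2 libraries of the same genotype would differ is unknown. Of 55 values recomputed under 11 alternatives, 17 stayed within 1.5 times (numbers of domains) or within the 95% interval of the value (the others), and 38 moved. Merging of the WT list alone was chosen after seeing the data. The causes were not tested. Each setting below is followed by the values that moved.

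With both limits at 8000 bp there were 2097 domains, 32.1% without a WT peak, with a median WT coverage of 23.8% and a median length of 9796 bp. With both at 15000 bp there were 450, with 6.67%, 62.9% and 17717 bp. A WT limit of 5000 bp left 642 domains, 40.3% without a WT peak, with a coverage of 9.13%, a length of 11581 bp and a median rank of 85538. A WT limit of 13683 bp, which gives both lists 4779 broad peaks, gave 15.6%, 51.6% and 12243 bp; its 1661 domains were within 1.5 times.

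Merging peaks within 5000 bp in both lists gave 4505 domains, with 35.2%, 8.96%, 13298 bp and rank 46127 in the merged list. Merging the WT list alone gave 693, with 37.4%, 14.97%, 11772 bp and rank 85890. The next filters applied to both lists, so that WT peaks were removed too and the domains they gave are no subset of the 1198. Ranks under these filters are those of the unfiltered UBR7-KO list. A fold enrichment of at least 2.2 gave 283, with 40.6% without a remaining WT peak, a coverage of 16.6% and rank 36801. Keeping peaks whose pileup reached 3 times the recovered background gave 474, of which 74.9% had no remaining WT peak (355, against 259 without a WT peak in the unfiltered lists), with a coverage of 0%, a length of 12621.5 bp and rank 37261.5. Requiring the broad WT peak to cover 50% of the domain gave 16.5%, 45.8% and 12546.5 bp. No value moved when it had to cover 10% or when chromosomes 19, X and Y were included.

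The planned gene alternatives were not run, since hg19 genes were not annotated. No paired analysis was possible because WT and UBR7-KO have 1 library apiece, which also left no replicate to omit.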

Other observations

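Chromosome 19, which the rule leaves out, carried 597 UBR7-KO peaks over 10000 bp. Of these, 111 overlapped no WT peak over 10000 bp and 19 overlapped no WT peak at all. The sex chromosomes X and Y carried 0 UBR7-KO peaks over 10000 bp.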
